A study of Mus musculus with 116 samples.

Results

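The subject is the residual joining of Igk Vk segments to Jk1 in pro-B cells that lack DNA ligase IV. The members are the 9 Lig4-/- libraries of clones A1 and B1 read from the Jk1 coding end, with the 6 WT libraries of clones A and B as controls, 15 of the 116 samples of the series. The 9 lists hold 425 joins, 260 in lineage A and 165 in lineage B, where a join is 1 listed read. All cells were v-Abl pro-B cells, mouse B-cell precursors transformed by the v-Abl kinase, and all carried Emu-Bcl2, a transgene that keeps arrested cells alive. All were labelled G1-arrested, after 96 h in 3 µM STI-571, an Abl inhibitor that in cells of this kind also switches on the RAG recombinase. The Lig4-/- genotype rests on the labels, since junction lists hold no reading of the Lig4 gene. WT here means Emu-Bcl2 alone, Lig4-/- means Emu-Bcl2 with loss of Lig4, and Ku70-/- means Emu-Bcl2 with loss of Ku70. Clone A1 was read as 2 sets, Lig4_A1 and Lig4_A1_b, and clone B1 as 1 set, with 3 libraries a set. Each genotype and lineage is thus 1 clone. How the clones were derived, and whether the sets and replicates were separate cultures, is not given in the sources used here, so the p-values measure the spread between libraries, which may be technical.

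RAG cuts between a gene segment and its recombination signal sequence, which starts with a conserved heptamer, and leaves a hairpin-sealed coding end and a blunt signal end. Classical non-homologous end joining opens the hairpin and joins coding end to coding end; Ku70 is part of the complex that first binds the ends, and ligase IV with XRCC4 seals them. A hairpin opened away from its tip leaves a short overhang that mirrors the end, and when it is filled in the mirrored bases are known as P nucleotides. Ends that are not sealed this way can be trimmed and joined at short shared sequences, known as microhomology. A coding end joined to a signal end is known as a hybrid join.

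The reads start in the flank of Jk1 and run through it towards the joined Vk. Jk1 (Igkj1, exonic joining segment) lies on chromosome 6 from 70722562 to 70722599 (38 bp, mm10), and its coding end is at 70722562. The sequences below are shown because they hold the joins that recur, the longest microhomology and the inserted bases that the later values count. They are printed as read, 5′ to 3′, with Jk1 first and the Vk side after it. Capitals mark bases that both sides share, or inserted bases where this is said. The most frequent join of each set and the longest microhomology of each lineage followed a rule, and the WT joins, the other recurrent join and the insertion were chosen after their values were seen.
Jk1 as read, ending at its coding end: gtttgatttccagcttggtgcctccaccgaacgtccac
WT lineage A, Igkv1-135, most frequent WT join, 1 inserted base: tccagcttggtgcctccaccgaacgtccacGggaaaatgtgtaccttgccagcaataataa
WT lineage A, Igkv19-93, its most frequent WT join, 1 inserted base: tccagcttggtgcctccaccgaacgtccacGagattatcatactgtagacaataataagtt
Lig4_A1, Igkv19-93, most frequent join of the set: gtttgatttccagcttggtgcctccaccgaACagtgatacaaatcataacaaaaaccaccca
Lig4_A1 and Lig4_A1_b, Igkv6-32, opposite orientation: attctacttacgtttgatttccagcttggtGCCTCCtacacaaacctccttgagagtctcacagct
Lig4_A1_b, Igkv6-32, most frequent join of the set: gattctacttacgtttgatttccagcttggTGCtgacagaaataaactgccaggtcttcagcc
Lig4_B1, Igkv14-100, most frequent join of the set: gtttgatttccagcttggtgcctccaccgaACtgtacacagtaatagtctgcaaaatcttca
Lig4-/- lineage A, Igkv4-81, longest microhomology: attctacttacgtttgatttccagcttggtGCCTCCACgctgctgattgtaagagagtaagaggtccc
Lig4-/- lineage B, Igkv1-135, longest microhomology: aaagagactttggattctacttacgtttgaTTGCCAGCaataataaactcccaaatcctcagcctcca
Lig4_B1, Igkv4-80, whole ends with 13 inserted bases: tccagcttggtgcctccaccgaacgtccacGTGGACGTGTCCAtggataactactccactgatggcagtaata

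The WT reads keep the whole of Jk1 up to its final "gtccac", whereas the printed Lig4-/- reads with microhomology leave Jk1 between 6 and 24 bp before its end. In the Lig4_A1 join the Vk side begins with the heptamer less its first base, so the partner is the signal side of Igkv19-93 and not its coding end.

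Few joins remained. Lig4_A1 libraries listed 35, 37 and 74 joins, Lig4_A1_b libraries 17, 32 and 65, and Lig4_B1 libraries 50, 55 and 60. The WT_A libraries listed 47130 to 53074 and the WT_B libraries 291174 to 305846 from the same numbers of raw reads, 167151 in lineage A and 600000 in lineage B. Per 100000 raw reads this was 10.2 to 44.3 joins in clone A1, 8.33 to 10.0 in clone B1, and at least 28196 in every WT library. No Lig4-/- library overlapped a WT library. The log2 difference in abundance, averaged over both lineages, was -11.36 (two-sided exact permutation test over 1680 relabellings within lineage, p = 0.000595, adjusted over 16 tests 0.00159). Within lineage A, 4 pairs of libraries shared a sequencing run with a WT library, and their mean difference was -10.06. All lineage B libraries came from 1 run. In lineage A, same-numbered Lig4-/- and Ku70-/- libraries shared a run, but the permutation tests relabelled libraries across runs. The p above is the smallest p that the relabellings can give, and the same p recurs below wherever no relabelling was as extreme. Counting error alone is large at these depths: in a library of 17 joins a share of 0 allows up to 17.6%, and in one of 74 joins up to 4.05%. These limits treat reads as independent. The 2 libraries held only 8 and 38 distinct joins, as defined below, so the limits should be wider.

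**Figure D1:**
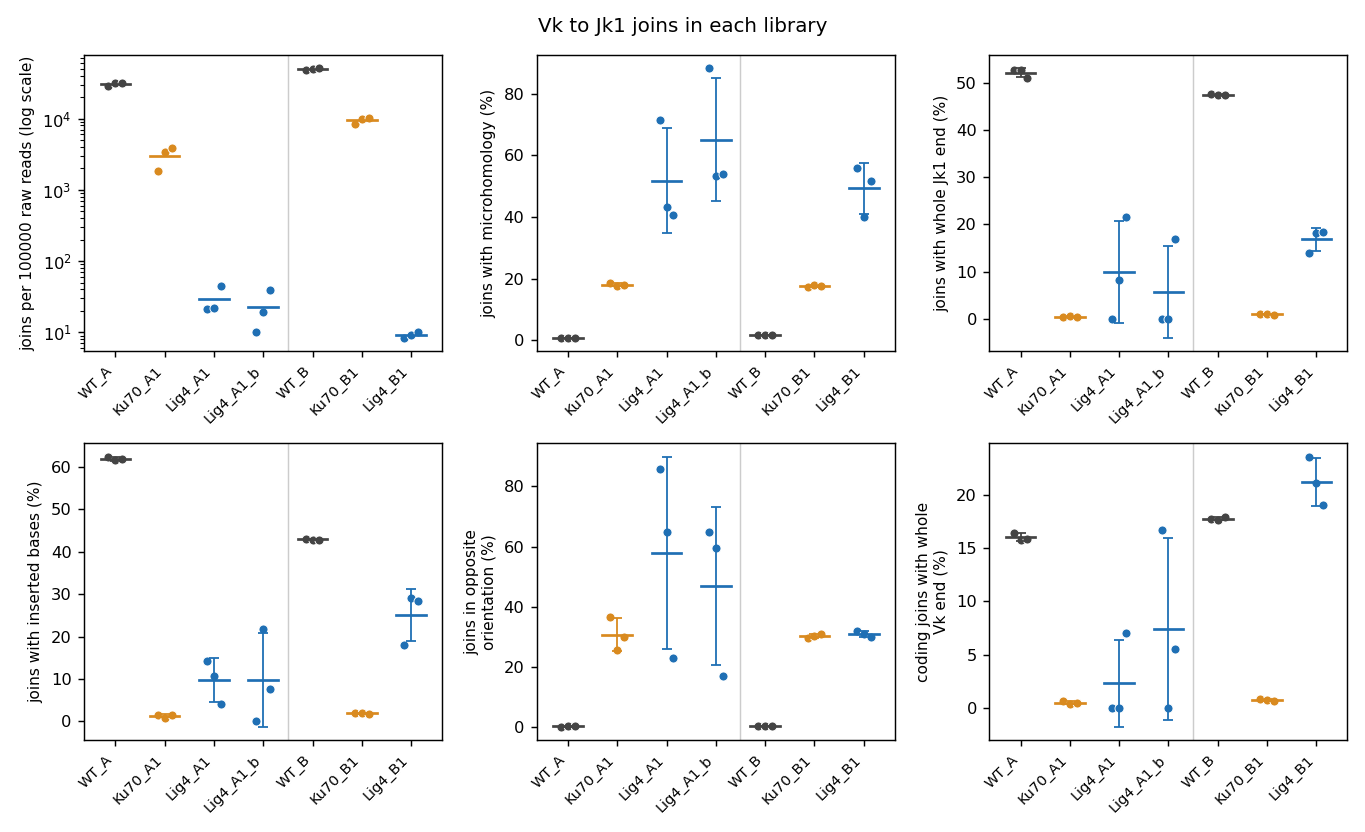
Each point is 1 library and bars are the mean of 3 libraries, by group, with lineage A left and lineage B right of the grey line. Panels show joins per 100000 raw reads (log axis, without whiskers) and 5 shares in percent, with whiskers for the SD. The Lig4-/- libraries sit between 8.33 and 44.3 joins per 100000 raw reads, and their microhomology shares, from 40% to 88.2%, all lie above those of WT and Ku70-/-.

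Shared bases at the junction were far more frequent in the joins that remained. The share with at least 2 bp of microhomology was 53.1% in lineage A (138 of 260, exact 95% Clopper-Pearson interval 46.8 to 59.3) and 49.1% in lineage B (81 of 165, 41.2 to 57.0). In the pooled WT joins the share came to 0.779% and 1.74%. By library it was 71.4%, 43.2% and 40.5% in Lig4_A1, 88.2%, 53.1% and 53.8% in Lig4_A1_b, and 56.0%, 40% and 51.7% in Lig4_B1. Every Lig4-/- library lay above every WT library, by 52.5 percentage points on average (exact permutation p = 0.000595, adjusted 0.00159). Within shared runs of lineage A the difference was 46.9 points (39.7 to 53.0 over 4 pairs). Lig4-/- also exceeded Ku70-/-, whose libraries held 17.4% to 18.5%, by 36.0 points (exact permutation p = 0.000595, adjusted 0.00159). The sets Lig4_A1 and Lig4_A1_b, which share a clone, overlapped: 51.7% ± 17.1 against 65.1% ± 20.1 (SD, n = 3 each, difference 13.3 points, exact permutation p = 0.5, where 0.1 is the smallest possible). Lig4_A1_b was the higher in each same-numbered pair, so a difference between the sets is not excluded.

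The shared stretches were also longer in the pooled lineages, which is given as a description with no test. Among joins with at least 2 bp, the median was 3 bp in both Lig4-/- lineages and 2 bp in both WT and both Ku70-/- lineages. The 2 sets of lineage A differed, with 2 bp in Lig4_A1 (71 joins) and 4 bp in Lig4_A1_b (67 joins). Stretches of at least 4 bp made up 24.2% of lineage A joins (63 of 260, 19.1 to 29.9) and 13.3% of lineage B joins (22 of 165, 8.55 to 19.5). In Ku70-/- they made up 3.31% and 3.61%, and in WT 0.111% and 0.146%. The longest in Lig4-/- was 8 bp in each lineage. Joins with neither shared nor inserted bases, the most frequent kind in Ku70-/- (54.1% and 52.8%), were 26.9% in lineage A and 13.3% in lineage B of Lig4-/- and 34.4% and 47.8% in WT. The peak at 6 bp in lineage A (27 joins) came from few distinct joins, as described below, and lineage B held 3 joins of that length.

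**Figure D2:**
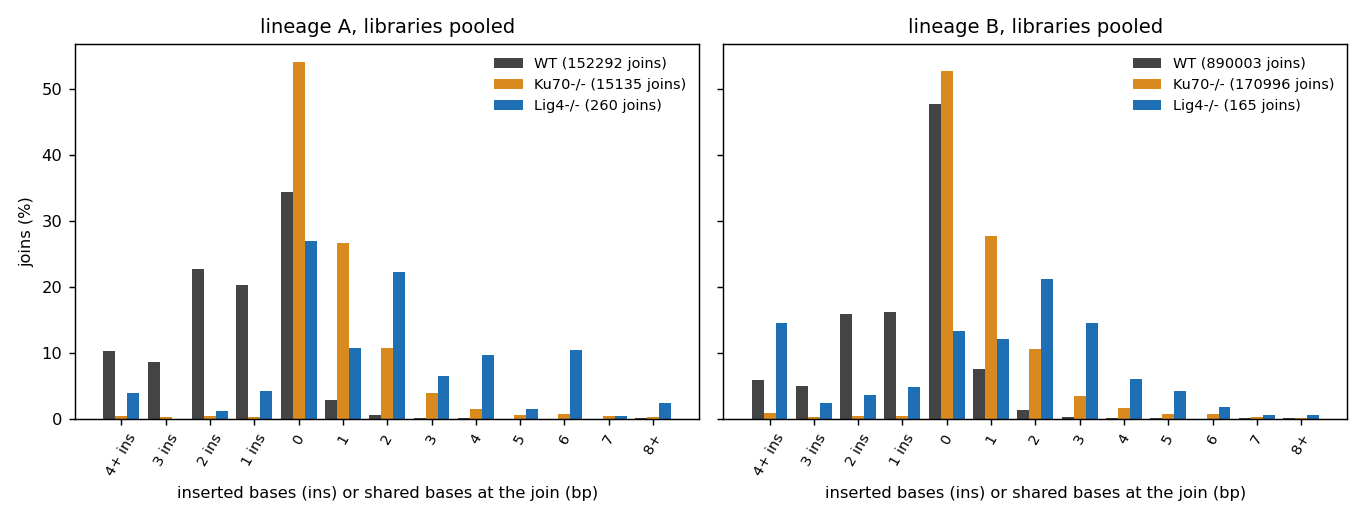
Bars give the percent of pooled joins by the number of inserted bases (left of 0) or shared bases (right of 0) in bp, for WT, Ku70-/- and Lig4-/- in each lineage. Lig4-/- bars are higher than those of both other genotypes at 2 bp and 3 bp of shared sequence in both lineages. WT bars are higher than those of both other genotypes at 1, 2 and 3 inserted bases in both lineages.

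A few short stretches of Jk1 were shared in many of the joins, mostly through repeated reads of few distinct joins. The bases AC, 6 bp inside the coding end, were the shared stretch of 54 joins, 5 of them distinct, in 8 of the 9 libraries. They led to 5 segments: Igkv14-100, Igkv19-93, Igkv3-4, Igkv8-30 and Igkv9-123. The stretch GCCTCC, at a Jk1 loss of 13 bp, was shared in 15 joins (2 distinct) over 8 libraries to Igkv6-32 and Igkv8-16. CTCCAC, at a loss of 11 bp, was shared in 11 joins (2 distinct) over 3 libraries to Igkv4-51 and Igkv4-56. GCCTCCAC, which spans both, was the stretch of 5 joins (2 distinct) to Igkv3-10 and Igkv4-81. Counts of these stretches in WT and Ku70-/- are not given here, so they are not shown to be particular to Lig4-/-. Across all joins the most used Jk1 end point lay 6 bp inside the coding end (63 joins, 12 distinct, 8 libraries), ahead of the whole end (58 joins, 41 distinct, 6 libraries). An end point 13 bp inside was found in each of the 9 libraries (25 joins, 8 distinct), and all 25 joins there had at least 2 shared bases.

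More bases were missing from Jk1. With shared bases counted as present on both sides, so that each loss is a minimum, the median loss was 7 bp in lineage A and 13 bp in lineage B, against 0 and 1 bp in WT. By library the median was 6, 11 and 3 bp in Lig4_A1, 13, 14 and 9 bp in Lig4_A1_b and 12.5, 18 and 7.5 bp in Lig4_B1. No Lig4-/- library overlapped WT, and the difference on the log10(1 + median) scale was 0.893 (exact permutation p = 0.000595, adjusted 0.00159; 0.964 within shared runs of lineage A). Losses over 10 bp made up 46.1% of lineage A joins (120 of 260, 40 to 52.4) and 53.3% of lineage B joins (88 of 165, 45.4 to 61.1), against 0.726% and 0.482% in WT and 70.8% and 64.6% in Ku70-/-. The primer sets a ceiling: no list of lineage B held a loss over 48 bp, and the highest in lineage A was 107 bp, in Ku70-/-. The longest Lig4-/- losses were 54 bp in lineage A and 48 bp in lineage B, so losses in lineage B may be cut short.

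A whole Jk1 end, counting the 5 Lig4-/- joins that run past it, was kept in 0%, 8.11% and 21.6% of Lig4_A1 joins, in 0%, 0% and 16.9% of Lig4_A1_b joins and in 14%, 18.2% and 18.3% of Lig4_B1 joins. WT libraries kept it in 47.6% to 52.9%. The difference was -37.6 points (exact permutation p = 0.000595, adjusted 0.00159), and -40.3 points within shared runs of lineage A (-52.8 to -29.5). Against Ku70-/- libraries, which kept it in 0.325% to 0.945%, Lig4-/- was higher by 11.6 points (exact permutation p = 0.0161, adjusted 0.0234). The replicate block, in which same-numbered libraries are paired, gave p = 0.0625 by an exact sign-flip permutation for this difference, so it was not past 0.05 there. Without joins identical to WT, which are described below, the gap to Ku70-/- fell from 11.6 to 4.08 points (exact permutation p = 0.0375). In lineage A the Lig4-/- and Ku70-/- groups overlapped, since 3 Lig4-/- libraries had no such join among 35, 17 and 32.

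On the Vk side the loss was measured over joins in the coding orientation, in which the read enters the segment from its coding end as in WT. The median was 14, 3 and 3 bp in Lig4_A1, 17, 12 and 5.5 bp in Lig4_A1_b and 8.5, 13 and 10 bp in Lig4_B1, and 3 bp in every WT library. The groups overlapped in lineage A and did not in lineage B. The difference on the log10(1 + median) scale was 0.389 (exact permutation p = 0.00774, adjusted 0.0124). It was larger, 0.640, without joins that also occur in WT, and smaller in lineage A within shared sequencing runs (0.181, range 0 to 0.512 over 4 library pairs). A loss over 10 bp was found in 37.8% (56 of 148) and 51.8% (59 of 114) of coding joins, against 1.91% and 1.98% in WT, and the longest were 91 and 161 bp. Both ends were within 5 bp of whole in 45.9% and 27.2% of them, against 87.1% and 89.4% in WT. Both ends had lost more than 5 bp in 43.2% (64 of 148) and 52.6% (60 of 114) of these joins, against 0.428% and 0.283% in WT. In Ku70-/- this share was 78.4% and 75.1%.

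**Figure D3:**
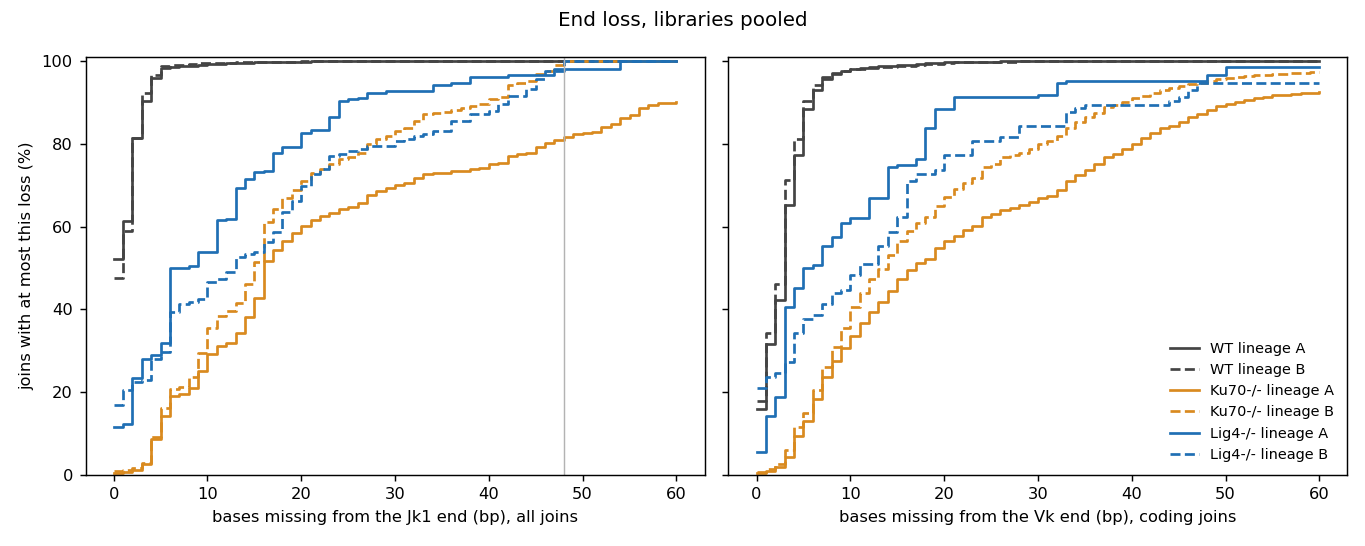
Curves give the percent of pooled joins that had lost at most the number of bases on the x axis (bp), from Jk1 (left, all joins) and from the Vk coding end (right, coding-orientation joins), for each genotype and lineage. The grey line marks 48 bp, the most that lineage B reads could show. At Jk1 the Lig4-/- medians, 7 and 13 bp, lie between those of WT (0 and 1 bp) and Ku70-/- (16 and 15 bp). Beyond 20 bp the Lig4-/- and Ku70-/- curves of lineage B, which both end at 48 bp, run close together (30.3% and 29.0% of joins lost more). In lineage A they are apart, with 82.7% of Lig4-/- and 60.2% of Ku70-/- joins at a loss of at most 20 bp.

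Fewer lineage A joins started exactly at the Vk coding end than in WT, while lineage B overlapped WT. Exact starts were 0 of 5, 0 of 13 and 3 of 57 coding joins in Lig4_A1, 0 of 6, 0 of 13 and 3 of 54 in Lig4_A1_b and 7 of 34, 7 of 38 and 5 of 42 in Lig4_B1. As shares the Lig4_B1 values are 20.6%, 18.4% and 11.9%, on both sides of WT_B at 16.0% to 16.3%, and no lineage A library passed 5.56% where WT_A had 13.5% to 14.2%. The difference from WT by this count, which was added after the joins were seen, was -5.56 points over both lineages (exact permutation p = 0.0256, not adjusted), -11.97 in lineage A and 0.847 in lineage B (exact permutation p = 0.7). The measure set out at first also counted joins that start past the coding end, on the flank side: 2 in lineage A and 5 in lineage B, of which 1 and 2 lay more than 3 bp past it and do not show a kept end. That measure gave -3.83 points (exact permutation p = 0.179, adjusted 0.220), with -11.1 in lineage A (-12.7 within shared runs) and 3.47 in lineage B. Its lineage B value turned to -3.11 without joins identical to WT, to -21.3 with a loss of up to 2 bp counted as whole and to -0.197 from annotated segment ends, so lineage B had no stable direction. The combined values under these 3 settings were -7.79, -24.4 and -7.03, with exact permutation p = 0.00952, 0.000595 and 0.0167. Against Ku70-/- the first measure was higher in Lig4-/- by 12.4 points (exact permutation p = 0.0196, adjusted 0.0262, replicate-block sign-flip p = 0.0625), and by 8.96 over exact starts and 8.43 without joins identical to WT. In lineage A the Lig4-/- and Ku70-/- groups overlapped by the first measure, with a difference of 4.33 points (exact permutation p = 0.393). In lineage B they did not overlap, and the difference was 20.45 points. Both sides exactly at their coding ends were seen in 11 of 114 coding joins of lineage B (9.65%, 4.92 to 16.6; 4, 5 and 2 by library), against 2.73% in WT_B. In lineage A they were seen in 0 of 148, against 2.98% in WT_A. With reads taken as independent, 0 of 148 allows up to 2.03%. The 260 lineage A joins were only 91 distinct ones, so that limit is too low and a deficit against WT_A is not established.

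Inserted bases were less frequent than in WT. They stood in 14.3%, 10.8% and 4.05% of Lig4_A1 joins, in 0%, 21.9% and 7.69% of Lig4_A1_b joins and in 18.0%, 29.1% and 28.3% of Lig4_B1 joins, against 61.5% to 62.4% in WT_A and 42.8% to 43.1% in WT_B. The difference was -34.9 points (exact permutation p = 0.000595, adjusted 0.00159; -50.6 within shared runs of lineage A), and no library overlapped. Against Ku70-/- (0.863% to 2.08%) Lig4-/- was higher by 15.8 points (exact permutation p = 0.00476, adjusted 0.00847). In lineage A the Lig4-/- and Ku70-/- groups overlapped, with a difference of 8.435 points (exact permutation p = 0.0952). In lineage B they did not overlap, and the difference was 23.2 points. Insertions of 1 or 2 bp made up 43.0% and 32.1% of WT joins against 5.38% and 8.48% in Lig4-/-. In lineage A longer insertions were also more frequent in WT, with 8.62% against 0% at 3 bp and 10.27% against 3.85% at 4 bp or more. In lineage B WT was higher at 3 bp (4.92% against 2.42%) and lower at 4 bp or more (5.92% against 14.55%). Insertions of at least 5 bp ran the other way in lineage B, with 17 of 165 joins (10.3%, 6.12 to 16.0) against 3.51% in WT_B, and were 1 of 260 in lineage A. With a minimum of 3 bp the combined difference was -4.50 points and not past the threshold (exact permutation p = 0.210).

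Inserted bases beside a whole end often mirrored that end, as P nucleotides do. Jk1 ends, as read, in "gtccac", whose mirror is GTGGAC. In Lig4_B1, all 18 joins with insertions at a whole Jk1 end began with at least 2 mirrored bases (4, 7 and 7 by library), and 11 of the 18 with at least 3 (61.1%, 35.8 to 82.7). The share with at least 3 was 9.09% in WT_B (18394 of 202429) and 76.1% in Ku70-/- lineage B (561 of 737). Beside a whole Vk end, 8 of 11 Lig4_B1 insertions ended with at least 3 bases that mirror the Vk (72.7%, 39.0 to 94.0), against 10.3% in WT_B and 74.7% in Ku70-/- lineage B. In every group these shares count insertions of 1 or 2 bp, which cannot hold 3 mirrored bases and were more frequent in WT. The contrast with WT was not corrected for insertion length. At least 1 mirrored base stood at Jk1 in 18 of 18 Lig4_B1 and 82.3% of WT_B insertions. At the Vk it stood in 10 of 11 and 66.9%. In Lig4_B1 replicate 3 the insertion was the full mirror GTGGAC in 2 joins to Igkv8-27, which are 1 distinct join, and in 1 join to Igkv1-135. In the printed Igkv4-80 join the first 8 inserted bases mirror Jk1 and the last 4 mirror the Vk. GTGGTAGTATCCTC, between whole ends of Jk1 and Igkv2-112, holds 4 bases that mirror Jk1 and 9 that mirror the Vk. GTTCCTCC, before Igkv1-117, mirrors the Vk over its full 8 bases, the first 2 of which also mirror Jk1. Lineage A had 7 joins with insertions at a whole Jk1 end, of which 2, the same distinct join, began with at least 3 mirrored bases (28.6%), against 8.61% in WT_A. It had none at a whole Vk end. This measure was chosen after the joins were seen and was not tested over libraries.

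Many Lig4-/- joins ran the wrong way for a coding join. In 43.1% of lineage A joins (112 of 260, 37.0 to 49.3) and 30.9% of lineage B joins (51 of 165, 24.0 to 38.6) the partner lay at a Vk segment but in the orientation opposite to that segment's WT joins. By library the share was 85.7%, 64.9% and 23.0% in Lig4_A1, 64.7%, 59.4% and 16.9% in Lig4_A1_b and 32%, 30.9% and 30% in Lig4_B1, and 0.210% to 0.365% in WT. No library overlapped WT, and the difference was 41.4 points (exact permutation p = 0.00238, adjusted 0.00544; 40.7 points within shared runs of lineage A, 16.6 to 64.6). Ku70-/- libraries held 25.8% to 36.8%, and Lig4-/- did not differ from them past the threshold (11.2 points, exact permutation p = 0.201, adjusted 0.229). Without joins identical to WT the gap was 20.5 points (exact permutation p = 0.0107). That rise follows from the removal, which took coding-orientation joins out of the Lig4-/- libraries alone. In lineage B the gap to Ku70-/- was 0.708 points, and the lineage A spread was wide.

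In these joins the partner was nearly always the signal side of the segment. Of the opposite-orientation joins, 107 of 112 in lineage A and 47 of 51 in lineage B started past the coding end, on the side of the recombination signal. The placement of the coding ends was checked on letters: where opposite reads of any of the 21 libraries read, Ku70-/- included, began right at the signal end, the first 3 bases were CAC in 97 of 100 segments, and the full heptamer CACAGTG stood in 86. The signal end had lost a median of 11 bp in lineage A and 25 bp in lineage B. For scale, the signal sequence of a Vk spans 28 bp, and 102 of 112 lineage A joins and 26 of 51 lineage B joins started within it. In WT, 75.5% and 72.2% of the rare opposite joins lay on the signal side, with a median loss of 2 bp, and in Ku70-/- 98.9% and 97.7%, with medians of 17 and 13 bp. The signal end was whole or lacked 1 bp in 35 of the 112 lineage A joins, 34 of them 2 recurrent joins at Igkv19-93 and Igkv3-4, and in 1 of the 51 lineage B joins. Microhomology stood in 73.2% (82 of 112, 64.0 to 81.1) and 58.8% (30 of 51, 44.2 to 72.4) of opposite joins, and in 37.8% (56 of 148, 30 to 46.2) and 44.7% (51 of 114, 35.4 to 54.3) of coding joins. The intervals are apart in lineage A and overlap in lineage B, and the difference was not tested over libraries. These intervals treat reads as independent, but 78 of the 112 lineage A opposite joins were reads of 6 recurrent joins. Their separation in lineage A therefore does not establish a difference. A whole Jk1 end was kept in 4 of 112 and 3 of 51 of the opposite joins.

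The share of joins on the plus strand fell. Joins on the plus strand, which are inversions of the intervening DNA for coding joins, made up 41.5% of lineage A and 46.7% of lineage B joins, against 64.0% and 59.4% in WT. The difference over libraries was -20.1 points (exact permutation p = 0.00357, adjusted 0.00714; -14.4 within shared runs of lineage A, -27.7 to -5.18). Over coding joins alone it was -5.81 points and not past the threshold (exact permutation p = 0.508), with pooled shares of 61.5% and 52.6% against 64.1% and 59.5% in WT. Ku70-/- libraries, with 45.5% to 47.4% over all joins, overlapped Lig4-/- in both lineages (difference -4.91 points, exact permutation p = 0.406, adjusted 0.433).

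Single joins recurred between lineage A libraries. A distinct join here means the same Vk position, orientation, Jk1 end and number of shared or inserted bases. The 260 joins of lineage A were 91 distinct joins, of which 15 occurred in more than 1 library and made up 129 of the 260 (49.6%). The 165 joins of lineage B were 134 distinct joins, of which 3 occurred in more than 1 library, with 11 joins. Of the 15, 14 occurred nowhere in the 152292 WT_A joins, and 6 were in the opposite orientation. The libraries of lineage A shared 2 to 6 distinct joins a pair, but at most 1 fragment a pair with the same far end of the read, and the 15 joins were read from 69 distinct fragments. By the read names the 6 libraries came from 3 sequencing runs, with same-numbered libraries of both sets in 1 run.

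The printed Igkv19-93 join was in all 6 lineage A libraries, with 13, 1 and 3 reads in Lig4_A1 and 3, 1 and 2 in Lig4_A1_b. It came from 11 fragments, lacked 6 bp of Jk1 and 1 bp of the Igkv19-93 signal end (position 68736295), and had the shared bases AC. It was in no WT_A library and in no Ku70_A1 library, and 1 read of Ku70_B1 held it. The printed opposite Igkv6-32 join at 70074011 was also in all 6, with 1, 2 and 6 reads in Lig4_A1 and 1, 1 and 2 in Lig4_A1_b. It came from 9 fragments and had the 6 shared bases GCCTCC. Reads of it were also found in Ku70_A1 (9), in Ku70_B1 (49) and in Lig4_B1 (1), but not in WT_A. The other 8 joins found in 3 libraries each included an Igkv4-51 coding join with the shared CTCCAC (10 reads), an Igkv3-4 signal-side join with AC (11 reads) and an Igkv4-50 coding join with 4 inserted bases (4 reads).

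**Figure D4:**
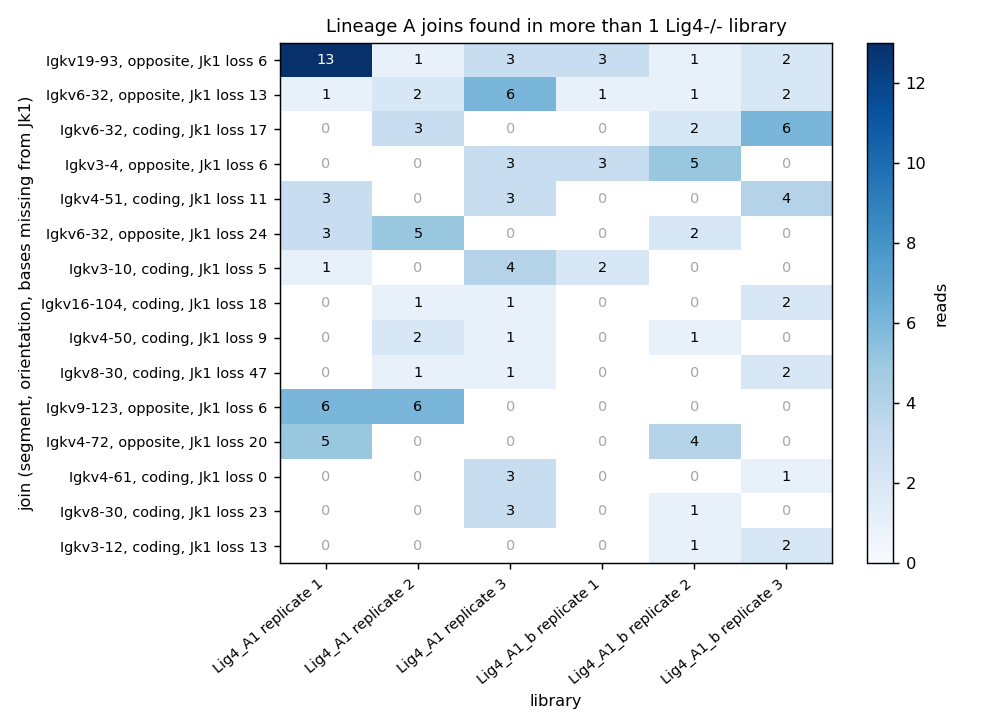
Cells give the number of reads of each of the 15 lineage A joins found in more than 1 Lig4-/- library (rows, with segment, orientation and bases missing from Jk1), by library (columns). The top 2 rows, at Igkv19-93 and Igkv6-32, are filled in all 6 libraries, and the Igkv19-93 join reaches 13 reads in Lig4_A1 replicate 1.

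Some Lig4-/- joins were identical to WT joins, and unevenly so. In lineage A this was 1, 5 and 35 joins of Lig4_A1 and 0, 0 and 24 of Lig4_A1_b, or 65 of 260 (25.0%). In Lig4_B1 it was 14, 10 and 20, or 44 of 165 (26.7%). In replicate 3 of Lig4_A1 and of Lig4_A1_b, which were sequenced in 1 run with WT_A replicate 3, these joins had a median Jk1 loss of 2 bp, and none had 2 or more shared bases. Whole fragments in common with WT numbered 3 and 2 in those libraries. In Lig4_B1, 5, 3 and 7 of the joins identical to WT had at least 2 shared bases. Whether they formed in Lig4-/- cells was not tested. Without them the microhomology share of those libraries was 76.9% and 85.4%, the Jk1 loss 11 and 13 bp, and the whole Jk1 end remained in 1 of 39 and 0 of 41 joins. Over both lineages the microhomology difference from WT then was 62.0 points, the whole-Jk1 difference -45.2 and the opposite-orientation difference 50.7, with p = 0.000595 by exact permutation in each case. The joins were removed from Lig4-/- libraries only, and all of them were in the coding orientation. Larger gaps to WT after removal of joins that match WT are therefore no added evidence of a difference.

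Segments were used across the whole locus. Joins reached 40 segments in lineage A and 56 in lineage B, 69 of 123 in all, from Igkv segments 18.4 kb to 3112 kb from Jk1, and 27 segments were used in both lineages. The 8 segments with most joins held 43.1% of all. In order they were Igkv6-32 (46 joins), Igkv19-93 (27), Igkv1-135 (25), Igkv12-44 and Igkv8-21 (18 each), Igkv1-117 (17), and Igkv3-10 and Igkv3-2 (16 each). Igkv6-32 lies at 70074024 to 70074584, 648.5 kb from Jk1, and Igkv19-93 at 68736297 to 68736764, 1986 kb away. Igkv6-32 had 5, 10 and 6 joins in Lig4_A1, 1, 6 and 11 in Lig4_A1_b and 3, 0 and 4 in Lig4_B1. It held 15.0% of lineage A joins (10.9 to 19.9) against 3.36% in WT_A, and 4.24% of lineage B joins against 2.26% in WT_B. Its 46 joins were 12 distinct ones, and 29 were in the opposite orientation. Igkv19-93 held 10.4% in lineage A, where WT_A had 2.27%, and none of the 165 lineage B joins. Its 27 joins were 4 distinct ones.

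Igkv1-135, the second most used segment of WT_A, was instead spread over distinct joins, 20 among 25. It held 11.5% of lineage B joins (7.08 to 17.4; 2, 8 and 9 by library) against 2.86% in WT_B, and 2.31% of lineage A joins against 5.41% in WT_A. Igkv9-123 had 13 joins, all in Lig4_A1 replicates 1 and 2 and all on the signal side, and 0.0663% of WT_A joins. Of the segments most used in WT_A, Igkv3-10 held 4.23% of Lig4-/- joins (WT 5.51%), Igkv12-44 2.31% (WT 3.88%) and Igkv8-30 3.85% (WT 2.69%). In lineage B, Igkv12-44 held 7.27% (WT 4.55%), Igkv1-117 4.85% (WT 2.89%), Igkv3-7 1.21% (WT 3.23%) and Igkv8-24 0.606% (WT 3.48%). Of the 5 segments most used in WT in each lineage, the counting interval missed the WT share for 4: Igkv6-32 in lineage A and Igkv1-135 in lineage B, which were higher, and Igkv1-135 in lineage A (0.852 to 4.96) and Igkv8-24 in lineage B (upper bound 3.33%), which were lower. These intervals treat reads as independent, which recurrent joins are not.

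The segments met in at least 4 of the 9 libraries numbered 17 and held 268 joins (63.1%). Beside the 8 above they were Igkv8-30, Igkv3-4, Igkv4-50, Igkv4-81, Igkv4-73, Igkv16-104, Igkv1-88, Igkv4-58 and Igkv4-53, with 4 to 14 joins each. By family, Vk4 was the most used in both lineages, with 23.1% (18.1 to 28.7) in A and 26.7% (20.1 to 34.1) in B, where WT had 35.6% and 26.3%. Vk6 followed in lineage A with 15.4% (WT 6.21%) and Vk1 in lineage B with 19.4% (WT 12.2%). Segments within 1 Mb of Jk1 took 44.6% of the lineage A joins and 37.0% of those of lineage B, against 37.7% and 46.0% in WT. Over libraries the difference was -0.801 points and not past the threshold (exact permutation p = 0.878, adjusted 0.878).

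**Figure D5:**
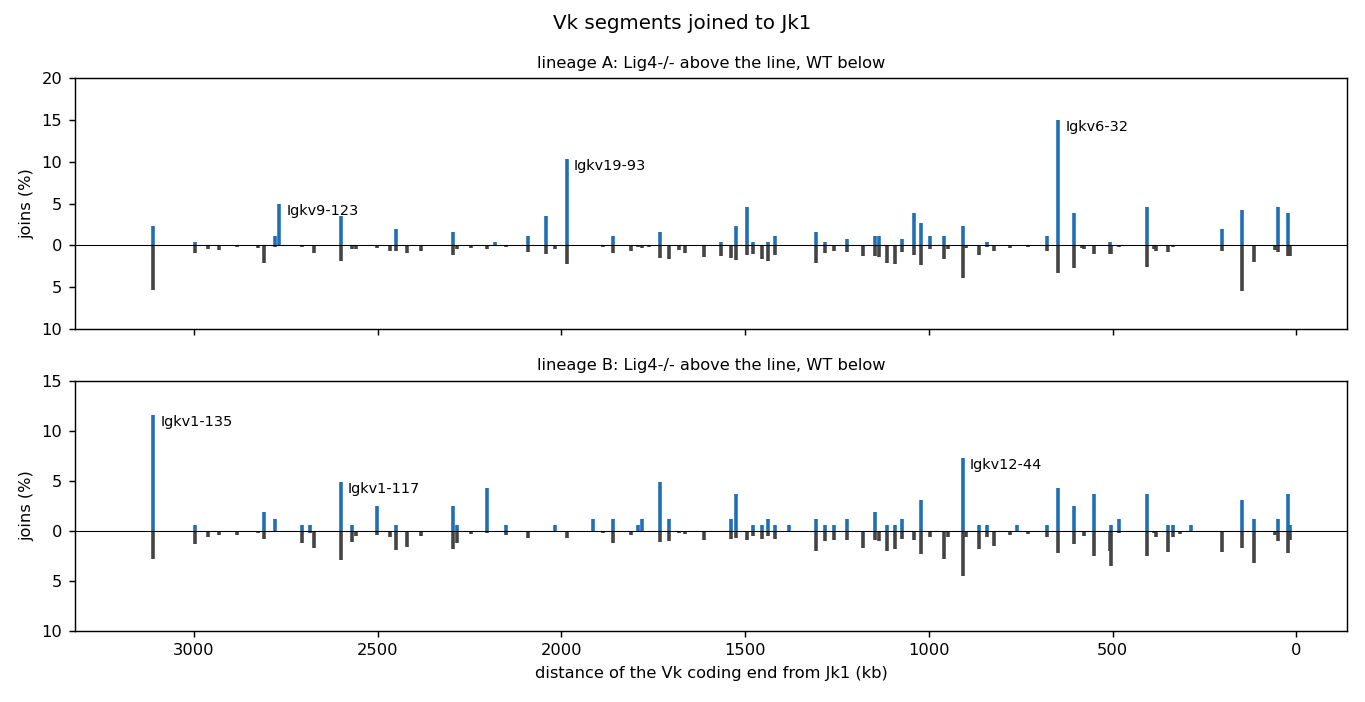
Lines show the percent of pooled joins at each of 123 Vk segments by the distance of its coding end from Jk1 (kb), with Lig4-/- above and WT below the zero line, for lineage A (top) and lineage B (bottom). The tallest Lig4-/- lines are Igkv6-32 (15.0%) and Igkv19-93 (10.4%) in lineage A and Igkv1-135 (11.5%) in lineage B.

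Joins identical to a Ku70-/- join of the same lineage were 8 of the 91 distinct joins in lineage A and 54 of the 134 in lineage B. The Ku70-/- lists hold 15135 and 170996 joins, so lineage B offers more to match.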

How the data were processed

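Per the labels, the lists come from LAM-HTGTS, where DNA is copied from a primer near Jk1 across the junction into its partner, with the enzyme blocking step omitted, and the authors normalised each set to a stated number of raw reads. The deposited lists give 1 read a row, with positions and other alignment values rather than counts. The submitters' processing notes name Bowtie2 and mm10. Reads carry no molecular identifiers, so identical joins can be PCR copies, and intervals cover counting error only. Of the 116 samples 21 libraries were read, 6 of them Ku70-/-.

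Jk1 loss was the bait end minus the Jk1 start in RefSeq (GRCm38.p6). Shared bases were the overlap of bait and prey on the read. Each join was given to the nearest Vk coding end within 500 bp. That end was the outermost WT position holding at least 5% of the segment's WT joins, in the orientation most of them have (123 of 162 annotated segments with at least 20 WT joins, 96 equal to the annotated end). Vk loss was taken over coding-orientation joins.

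Group differences are the mean of the lineage differences (6 against 3 and 3 against 3 libraries), tested two-sided by permuting labels within lineage, with Benjamini-Hochberg adjustment over 16 tests (Python 3.11.15, NumPy 2.4.6, SciPy 1.17.1). Code was tested on simulated data. Named segments were the 8 with most Lig4-/- joins, the 5 with most WT joins in each lineage, and those in at least 4 of 9 libraries; others were named after their values were seen. The members, measures and lists were chosen with earlier results of these data known.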

Additional observations from a re-analysis of the deposited data

How the results depend on the processing

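Of 395 recomputed differences over both lineages, 378 kept their direction and side of 0.05. The exceptions were these. The whole Vk end share against WT (-3.83) became -7.79 without joins identical to WT, -24.4 with a loss of up to 2 bp, -7.03 from annotated ends and -5.56 over joins exactly at the coding end, all past 0.05; in lineage B alone it turned from 3.47 to -3.11, -21.3 and -0.197. With a minimum of 3 bp the insertion difference was -4.50, not past 0.05, and 5.83 in lineage B. Over coding joins the plus-strand difference was -5.81, not past 0.05. The share within 1 Mb (-0.801) turned to 7.02 over distinct joins, 3.67 over distinct fragments, 1.22 with set A1_b only, 3.27 without joins identical to WT and 1.24 within 500 kb, and ran from -3.33 to 2.02 when 1 library was left out, being positive without Lig4_A1 replicate 1 (2.02), Lig4_A1_b replicate 3 (0.0411) or Lig4_B1 replicate 2 (0.189).

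Against Ku70-/- in lineage B, the plus-strand difference (-0.676) turned to 2.41 over distinct joins, 0.913 over distinct fragments, 1.22 without recurrent joins and, leaving out 1 library, between -3.81 and 2.56 (positive without Lig4_B1 replicate 1), and the opposite-orientation difference (0.708) to -3.44 over distinct joins. Over both lineages the latter (11.2) became 20.5, past 0.05, without joins identical to WT. This change follows from removing coding-orientation joins from Lig4-/- libraries only. The other values without joins identical to WT, among them the whole Vk end share, rest on the same removal from Lig4-/- libraries only. They are therefore no added evidence of a difference. The cause of the remaining changes was not tested.

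Under the replicate block, the whole Jk1 end (11.6) and whole Vk end (12.4) differences from Ku70-/- had an exact sign-flip permutation p of 0.0625, and no other call changed. Same-numbered Lig4-/- and WT libraries deviated from their group means with correlations from -0.595 to 0.236, so the numbers do not pair them. Lig4_A1 and Lig4_A1_b did pair (0.317 to 0.742). Their microhomology difference of 13.3 points had a paired p of 0.25 by exact sign-flip permutation, the smallest p that 3 pairs can give. Leaving out 1 library moved that difference between 1.75 and 23.2 and the microhomology difference from WT between 49.6 and 54.9. Alternatives by distinct fragment, recurrence, coding orientation and exact coding end, those without WT-identical joins against Ku70-/-, and the opposite-orientation share, were chosen after seeing the data. Lists of 17 to 74 joins limit every library share.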
